A study of Mus musculus with 24 samples.

Results

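Immediate early and heat shock genes, the programmes that cells switch on within minutes of a signal or a stress, were followed as a set of 39 genes in RNA sequencing of mouse bone marrow LSK cells. LSK cells lack lineage markers and carry Sca-1 and Kit on their surface, a gate that holds blood stem cells and multipotent progenitors. The members were picked by gene symbol: 26 immediate early genes, and 13 heat shock genes with their regulator Hsf1. All 39 were found among the 55414 genes of the count files, and 38 of them passed the filter on low counts, which left 19616 genes for testing. Hspb1, a small heat shock protein with at most 12 counts in any library, did not pass.

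The pups were taken at postnatal day 21 from C57BL/6J dams. Control dams ate regular chow (2018SX) and Western-diet dams ate TD.88137, a diet given to make them obese, for 4 weeks before mating and on through pregnancy and lactation. The 24 libraries form 4 groups of 6: female control, female Western-diet, male control and male Western-diet pups. Each group has 2 libraries in each of 3 labelled batches, and the labels do not say what a batch was. Marrow was crushed from leg and hip bones and depleted of lineage-positive cells before the sort into lysis buffer, and libraries were made with a low-input kit from polyadenylated RNA whose integrity number exceeded 8.0. No dam or litter is named, so some libraries may come from littermates. A p-value for a difference here reflects only how much libraries vary beyond group and batch, with the spread shared by all 4 groups.

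Immediate early genes need no new protein to be transcribed: the MAP kinases and the factors that switch them on, such as SRF and CREB, are already present in the cell. Their products are transcription factors (AP-1, Egr and Nr4a proteins), phosphatases that switch the kinases off again (Dusp proteins) and proteins that destroy short-lived mRNA (Zfp36 proteins), so the response is brief. Heat shock genes are driven by Hsf1, which chaperones hold inactive until unfolded proteins draw them away. Tissue dissociation and cell sorting are well known to induce both programmes. In blood stem cells, Egr1, Nr4a, Junb and Btg2 have been linked to quiescence and restrained growth.

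The promoters of 8 members are printed because they hold the elements named for these pathways, and differences of these members are described further on. Atf3, with the largest batch differences of the immediate early genes, also held a TGACG match and is not printed. The printed promoters are RefSeq sequences on GRCm38.p6, whereas the count files were made on GRCm39. They run 5′ to 3′ on the gene's strand up to the base before the annotated start. Capitals mark matches. For the Nr4a genes, orphan nuclear receptors, the capitals are TGACG and its reverse complement CGTCA, the core of the cyclic AMP response element that CREB binds. The stretches are chr15:101266596-101266845 (+ strand), chr2:57124004-57124253 (- strand) and chr4:48045055-48045304 (+ strand).
Nr4a1: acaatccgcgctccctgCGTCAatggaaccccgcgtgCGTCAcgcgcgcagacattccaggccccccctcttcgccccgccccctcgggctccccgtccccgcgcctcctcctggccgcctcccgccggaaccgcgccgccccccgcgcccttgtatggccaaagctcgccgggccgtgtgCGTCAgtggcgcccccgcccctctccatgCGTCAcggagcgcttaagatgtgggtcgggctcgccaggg
Nr4a2: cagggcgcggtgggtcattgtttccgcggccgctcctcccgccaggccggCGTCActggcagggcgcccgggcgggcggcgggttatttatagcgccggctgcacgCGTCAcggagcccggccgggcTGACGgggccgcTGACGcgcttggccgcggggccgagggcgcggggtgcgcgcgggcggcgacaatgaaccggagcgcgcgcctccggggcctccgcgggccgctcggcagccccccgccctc
Nr4a3: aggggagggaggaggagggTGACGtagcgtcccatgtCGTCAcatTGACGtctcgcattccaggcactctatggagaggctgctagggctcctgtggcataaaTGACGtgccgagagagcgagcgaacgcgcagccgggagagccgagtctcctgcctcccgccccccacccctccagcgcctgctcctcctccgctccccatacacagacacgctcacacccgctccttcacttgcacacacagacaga
For Zfp36, which encodes the mRNA decay factor tristetraprolin, and Dusp5, a nuclear phosphatase of ERK, the capitals mark the CArG box that SRF binds. The stretches are chr7:28379229-28379328 (- strand) and chr19:53529045-53529144 (+ strand).
Zfp36: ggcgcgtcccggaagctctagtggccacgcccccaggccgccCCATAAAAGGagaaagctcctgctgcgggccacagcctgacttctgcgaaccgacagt
Dusp5: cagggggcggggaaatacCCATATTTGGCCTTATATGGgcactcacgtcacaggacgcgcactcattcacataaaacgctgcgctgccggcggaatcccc
For Hspa1a and Hspa1b, the stress-inducible HSP70 genes, and Hspe1, the small mitochondrial chaperonin, the capitals mark GAANNTTC and TTCNNGAA, facing pairs of the heat shock element. The stretches are chr17:34972157-34972276 (- strand), chr17:34959239-34959358 (- strand) and chr1:55088028-55088147 (+ strand).
Hspa1a: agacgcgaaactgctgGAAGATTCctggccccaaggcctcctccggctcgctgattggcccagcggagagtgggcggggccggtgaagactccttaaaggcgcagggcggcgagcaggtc
Hspa1b: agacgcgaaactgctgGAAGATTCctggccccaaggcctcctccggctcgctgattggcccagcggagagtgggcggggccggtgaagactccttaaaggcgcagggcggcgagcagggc
Hspe1: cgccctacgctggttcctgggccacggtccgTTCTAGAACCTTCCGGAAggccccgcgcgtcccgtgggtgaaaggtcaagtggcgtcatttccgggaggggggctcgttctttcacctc

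Windows of 300 bases, from 250 before to 50 after a start, were at hand for 31 of the 39 members and for 27025 genes in all; the other 8 members are Egr1, Egr3, Hsf1, Hsp90aa1, Hsp90ab1, Hspa8, Ier2 and Zfp36l2. TGACG, searched on both strands, stood in 13 of 22 immediate early and 5 of 9 heat shock members, and in 23.05% of all genes. Nr4a1, Nr4a2 and Nr4a3 each held 4 matches, a number reached or passed by 69 genes (0.255%). The full TGACGTCA, which contains TGACG on both strands, was found in Dusp1 and Btg2 and in 2.03% of all genes. The CArG box was found in Egr2, Dusp5 and Zfp36 and in 1.81% of all genes. GAANNTTC, which reads the same on both strands, stood in 8 of 9 heat shock members, 2 of 22 immediate early members and 9.04% of all genes. TTCNNGAA, also its own reverse complement, was in Hsph1, Hspd1, Hspe1 and Egr2 and in 9.60% of all genes, and its matches in Hspe1 overlap a GAANNTTC. Hspd1 and Hspe1 are neighbours on opposite strands, and their matches to both forms are the same bases. The windows of Hspa1a and Hspa1b are near copies, so the counts of heat shock members are not all of separate elements. A match says only that these letters are present.

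Levels per length were read as median CPM (gene counts scaled to a common library total with TMM factors) per kilobase of exon over all 24 libraries. The constitutive chaperone Hsp90ab1 led with 974, followed by Junb with 670.0, Hspa8 (constitutive HSP70) with 613, Ier2 with 561 and Fos with 418 CPM per kb. Immediate early transcripts therefore stood beside the constitutive chaperones in level. Hspd1 (387), Jun (259.5), Zfp36 (255), Hspe1 (239.9), Hsp90aa1 (207), Nr4a1 (163) and Btg2 (134) came next. The stress-inducible Hspb1, Hspa1b and Hspa1a were at the bottom, with Hspb1 at 0.0737, Hspa1b at 0.0781 and Hspa1a at 0.476 CPM per kb, followed by Egr3 (0.511), Nr4a3 (0.544) and Egr2 (1.26).

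Some levels are uncertain because transcripts share sequence or overlap, and the strand setting of the counting is not given in the sources used here. Hspa1a and Hspa1b are near copies: 1716 of the 2918 stretches of 50 bases in Hspa1a (58.8%) also occur in Hspa1b, and their promoter windows match at 296 of 300 bases. Reads that align to more than 1 place have a row of their own in the counts, with 4.21% to 7.16% per library. Reads that fit both copies may thus be missing from both, and the levels of the 2 genes may be too low. On the GRCm38 annotation the exons of Zfp36l1 overlap 1672 bases of the antisense Gm26669. Jund shares 877 of its 1668 bases with Gm11175, and reads in the shared stretch cannot be assigned to 1 of them without strand. Overlaps with opposite-strand genes were also found for Hspa1a (564 bases, Gm20481), Dusp5 (547 bases), Dnaja1 (608 bases, Smu1), Jun (232 bases, Junos), Junb (173 bases, Prdx2) and the neighbours Hspd1 and Hspe1 (112 bases). Zfp36 (125 bases, Gm44710), Zfp36l2 (105 bases), Dusp1 (11 bases, Ergic1) and again Dnaja1 (249 bases, Gm6297) overlap opposite-strand genes too. On the same strand, Hspa8 overlaps Snord14c, Snord14d and Snord14e (86, 86 and 90 bases), and Dnaja1 overlaps Mir207 (74 bases). Hspd1 and Hspe1 have 5 and 6 named pseudogenes.

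Each library held 38057263 to 51581968 counts in genes, with 25673 to 27858 genes detected. All 10 LSK markers were detected in all 24 libraries, with a median of 499.9 CPM for Kit and 13.3 CPM for Ly6a, which encodes Sca-1 and ranged from 2.14 to 39.9 CPM. Leaving out the 2 female control libraries of batch 3 lowered the number of genes called by diet in females from 1064 to 154 of all genes tested. No other pair of libraries of a group and batch was left out by itself. The drop therefore cannot be told apart from the effect of having fewer control libraries, and it does not mark this pair as unusual. Counts of members called that moved without that pair, and followed members that lost their call, are given with and without it. Calls of genes outside the set, cell type markers among them, are given only with it.

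The first comparison asks how LSK cells of female pups differed with the diet of the dam. Of the 38 members 1 was called, against 5.42% of all genes tested, 2.2% higher and 3.22% lower (edgeR quasi-likelihood test, Benjamini-Hochberg adjusted p under 0.05), and 10 had an unadjusted p under 0.05. It was Btg2, an antiproliferative cofactor that p53 and growth signals induce. Btg2 ran from 232 to 800.1 CPM (median 341) in female control libraries and from 109 to 514 (median 215) in female Western-diet libraries. The groups overlap, but 3 of the 6 Western-diet libraries lay below every control library. Its level fell by 0.69 ± 0.19 (SE) on the log2 scale, a 1.62-fold decrease (edgeR adjusted p = 0.0310), and the differences within batches 1 to 3 were -0.51, -0.87 and -0.81. The call did not survive leaving out female control library 1, 3, 5 or 6 or female Western-diet library 4 or 5, when the adjusted p was 0.0560 to 0.0989 and the log2 fold change -0.71 to -0.58. Without the control pair of batch 3 the log2 fold change was -0.73 and the adjusted p 0.163. In a bulk sample, fewer cells with the transcript and less of it per cell cannot be told apart.

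Next in order of p stood Bag3, the HSP70 co-chaperone that steers clients to autophagy, then Zfp36l1, an mRNA decay factor, and Egr1, a zinc finger factor. Bag3 ran from 9.27 to 14.5 CPM (median 11.1) in female control libraries and from 5.41 to 10.2 (median 9.003) in female Western-diet libraries. All 6 Western-diet libraries were below the control mean and 3 were below every control library, with a log2 fold change of -0.48 ± 0.15 (SE) and an adjusted p of 0.0697. Zfp36l1 ran from 107 to 276 CPM (median 168) in female control libraries and from 46.96 to 221 (median 72.8) in female Western-diet libraries, and 4 of the 6 Western-diet libraries lay below every control library. Its log2 fold change was -0.80 ± 0.28 (SE, adjusted p 0.0929), and within batches 1 to 3 the differences were -0.056, -0.88 and -1.70, so batch 1 showed almost none of it. Egr1 ran from 103 to 413 CPM (median 184) in female control libraries and from 44.5 to 382 (median 98.6) in female Western-diet libraries. Its groups overlap, with a log2 fold change of -0.86 ± 0.32 (SE, adjusted p 0.116). Without batch 1, Egr1, Zfp36l1 and Btg2 were called lower and Hsp90aa1 and Hsp90ab1 higher, 5 members in all; without batch 3 no member was called. The same 5 were called without female Western-diet 1, and 3 were called (Btg2, Zfp36l1 and Bag3) without female Western-diet 2. The share of all genes called in these refits is not given here, so these counts are not read as a result about the members.

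The AP-1 genes Jun and Junb had wide and overlapping groups in females. Jun ran from 313 to 1834 CPM (median 874) in female control libraries and from 52.4 to 1655 (median 763) in female Western-diet libraries, Junb from 1139.8 to 3588 (median 1418) in female control libraries and from 180.1 to 2082 (median 1348) in female Western-diet libraries and Ier2 from 398 to 2165 (median 886) in female control libraries and from 48.1 to 1825 (median 1219) in female Western-diet libraries. The low ends of the Western-diet ranges are all libraries 5 and 6, from batch 3. Within batches 1 to 3 the differences of Jun were -0.36, 0.53 and -3.07, those of Ier2, an immediate early nuclear protein, 0.12, 1.10 and -3.12, and those of Dusp1, the phosphatase of p38, JNK and ERK, -0.024, 0.96 and -2.86. The direction in batch 3 was thus the opposite of that in batch 2 for these genes. Dusp1 ran from 48.95 to 417 CPM (median 258) in female control libraries and from 34.01 to 405 (median 149) in female Western-diet libraries. Fos, the partner of Jun in AP-1, ran from 432 to 1132 CPM (median 797) in female control libraries and from 425 to 1199 (median 863) in female Western-diet libraries and differed by 0.055 ± 0.18 (SE) on the log2 scale. Over the fit, the log2 fold changes of Jun, Junb, Ier2 and Dusp1 were -0.83, -0.71, -0.13 and -0.60, with adjusted p from 0.312 to 0.941.

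Among the 12 heat shock members tested in females, none passed and 8 had a positive log2 fold change, with a median of 0.025 against 0.028 over all genes. The 26 immediate early members had 9 positive values and a median of -0.21. Hsp90ab1 ran from 2487 to 3254 CPM (median 2672) in female control libraries and from 2151 to 4699 (median 3676) in female Western-diet libraries, and 4 of the 6 Western-diet libraries exceeded every control library (log2 fold change 0.37 ± 0.15 SE, adjusted p 0.157). Hspa8 ran from 2234 to 3441 CPM (median 2820.0) in female control libraries and from 2347 to 5182 (median 2642) in female Western-diet libraries. Its highest values were again Western-diet libraries 5 and 6, and its log2 fold change was 0.17. Hsf1, the master factor, ran from 125 to 169 CPM (median 157) in female control libraries and from 105 to 142 (median 136) in female Western-diet libraries, with overlapping groups and a log2 fold change of -0.25 (adjusted p 0.209). Hspa1a ran from 0.797 to 2.77 CPM (median 1.97) in female control libraries and from 0.673 to 4.33 (median 1.52) in female Western-diet libraries, and its log2 fold change of 0.0027 was the smallest of the set in size. Hspa1b, its near copy, ran from 0.0224 to 1.20 CPM (median 0.357) in female control libraries and from 0.0591 to 1.61 (median 0.197) in female Western-diet libraries, with a log2 fold change of -0.25 ± 0.49 (SE, adjusted p 0.834).

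Some markers of other cells were called by diet in females. Erythroid markers were called lower in 3 of 9 tested genes, and their summed level was 1486 to 8734 (median 2975) CPM in female control and 776 to 2989.9 (median 1999) CPM in female Western-diet libraries. B cell markers were called higher in 3 of 10, with summed levels of 379 to 1192 (median 747) and 524 to 2246 (median 1131) CPM. 1 marker each of LSK cells and of T and NK cells was called higher, and T and NK cell markers, mostly Nkg7, summed to 125 to 307 (median 239.5) and 281 to 393 (median 338) CPM. None of the erythroid, B cell or T and NK cell markers was at 0 in any library, and their part in the results for females was not tested.

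**Figure D1:**
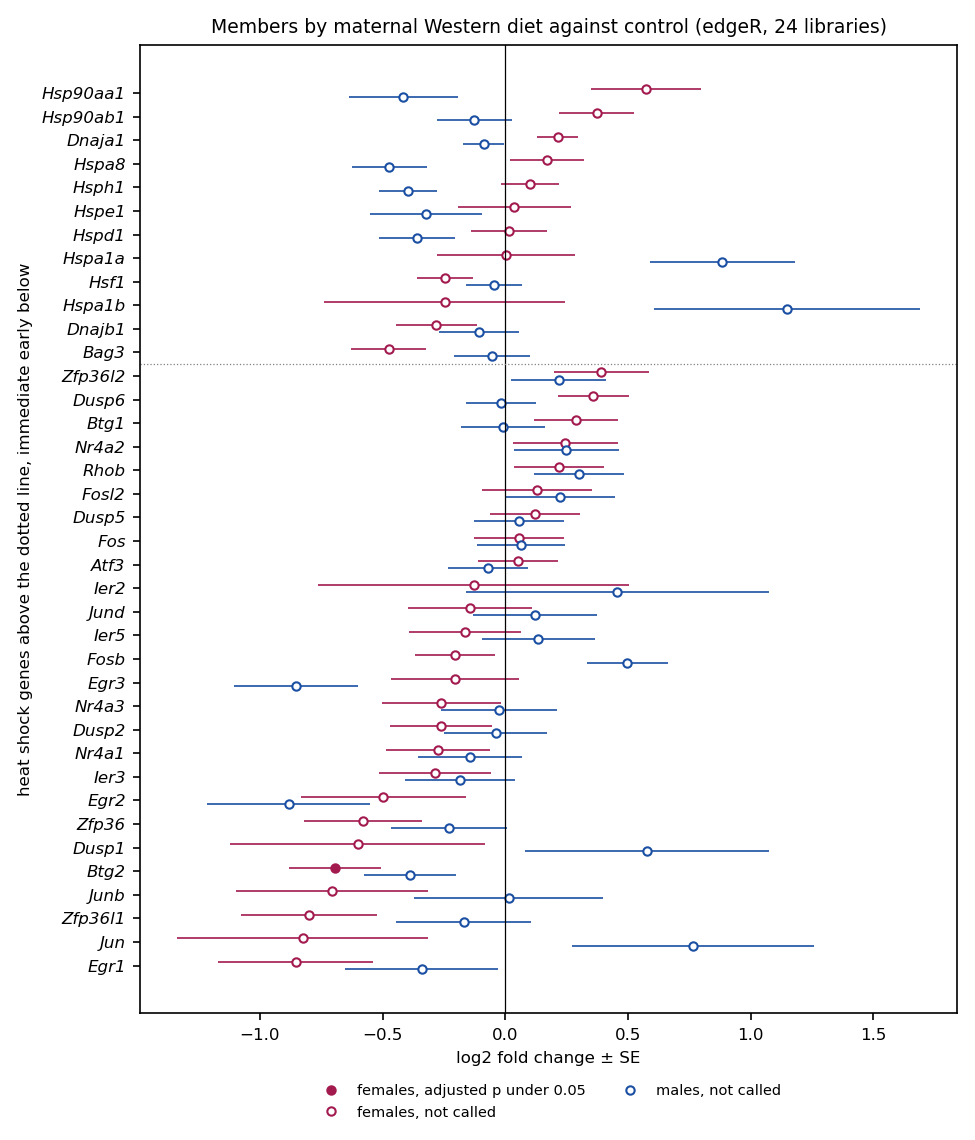
Log2 fold change of each of the 38 tested members by maternal Western diet against control (x axis, points with SE bars), in females (red) and males (blue), from edgeR on 24 libraries. Filled points have an adjusted p under 0.05: Btg2 in females is the one filled point, and Jun, Dusp1 and the chaperones Hsp90aa1 and Hspa8 lie on opposite sides of 0 in the sexes.

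In males no member was called by edgeR, against 0.0102% of all genes tested; 8 members had an unadjusted p under 0.05, DESeq2 called 0 and limma-voom called 1, Egr3, lower. Hsph1, an HSP110 exchange factor, had the smallest p and ran from 145 to 258 CPM (median 177) in male control libraries and from 109.9 to 216 (median 131) in male Western-diet libraries. Its groups overlap although 4 of 6 Western-diet libraries lay below every control library, and its log2 fold change was -0.40 ± 0.12 (SE, adjusted p 0.298). Hspa8 ran from 2483 to 4892 CPM (median 3216) in male control libraries and from 2114 to 3631 (median 2338) in male Western-diet libraries. Here 5 of 6 Western-diet libraries lay below every control library, with a log2 fold change of -0.47 ± 0.15 (SE, adjusted p 0.350) and within-batch differences of -0.62, -0.27 and -0.47. Western-diet library 5 was the exception.

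Egr3, a zinc finger factor induced with Egr1, ran from 2.25 to 8.11 CPM (median 3.60) in male control libraries and from 0.965 to 5.32 (median 1.85) in male Western-diet libraries and differed by -0.85 ± 0.25 (SE, adjusted p 0.298). Its within-batch differences were -0.22, -0.81 and -1.45, all of 1 sign. Fosb, a Fos family subunit of AP-1, ran from 96.98 to 338 CPM (median 135) in male control libraries and from 158 to 328 (median 197) in male Western-diet libraries. All 6 Western-diet libraries exceeded the control mean, with a log2 fold change of 0.50 ± 0.16 (SE, adjusted p 0.357). Egr2 ran from 5.42 to 8.85 CPM (median 6.47) in male control libraries and from 2.43 to 6.58 (median 3.62) in male Western-diet libraries, and all 6 Western-diet libraries lay below the control mean.

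The other leading members in males stayed within wide spreads. Jun ran from 86.8 to 954 CPM (median 489) in male control libraries and from 438 to 1395 (median 830.2) in male Western-diet libraries, with all 6 Western-diet libraries above the control mean and a log2 fold change of 0.77 ± 0.49 (SE, adjusted p 0.702). Ier2 ran from 115 to 1218 CPM (median 688) in male control libraries and from 428 to 1214 (median 927) in male Western-diet libraries, and Dusp1 from 39.3 to 176 (median 91.7) in male control libraries and from 98.5 to 199 (median 156) in male Western-diet libraries. For both, the lowest values were control libraries 1 and 5, and the log2 fold changes were 0.46 ± 0.62 and 0.58 ± 0.50 (SE). Fos ran from 858 to 1874 CPM (median 1058) in male control libraries and from 829 to 1643 (median 1198) in male Western-diet libraries, Junb from 743 to 2515 (median 1482) in male control libraries and from 1137 to 2272 (median 1709) in male Western-diet libraries and Egr1 from 86.8 to 308 (median 184) in male control libraries and from 87.1 to 286 (median 124) in male Western-diet libraries. Their log2 fold changes of 0.063, 0.014 and -0.34 had adjusted p of 0.946, 0.995 and 0.789. Btg2 ran from 282 to 642 CPM (median 441) in male control libraries and from 182 to 604 (median 371) in male Western-diet libraries, with a log2 fold change of -0.39 ± 0.19 (SE, adjusted p 0.591).

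For the heat shock genes of males, 10 of 12 log2 fold changes were negative, with a median of -0.12 against 0.023 over all genes, and the exceptions were the near copies Hspa1a (0.88) and Hspa1b (1.15). Hspa1a ran from 0.501 to 1.37 CPM (median 0.786) in male control libraries and from 0.617 to 1.98 (median 1.80) in male Western-diet libraries, and Hspa1b from 0 to 0.363 (median 0.153) in male control libraries and from 0.0446 to 0.767 (median 0.327) in male Western-diet libraries. Counted as 1 gene, the pair had a log2 fold change of 0.91 and an adjusted p of 0.382. Hsp90ab1 ran from 2457 to 4447 CPM (median 2992) in male control libraries and from 2621 to 3036 (median 2969) in male Western-diet libraries, Hsp90aa1 from 678 to 1475 (median 915) in male control libraries and from 545 to 917 (median 756) in male Western-diet libraries and Hsf1 from 130.4 to 188 (median 140.5) in male control libraries and from 109.7 to 175 (median 148) in male Western-diet libraries. Their groups overlap, and their log2 fold changes were -0.13, -0.42 and -0.046.

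In males no marker of another cell type was called by edgeR, but all 9 erythroid markers had negative log2 fold changes, with a median of -1.24. Their summed level was 2932 to 7145 (median 5198) CPM in male control and 1174 to 3474 (median 2207) CPM in male Western-diet libraries. T and NK cell markers summed to 242 to 382 (median 284) and 339 to 406 (median 369) CPM. Averaged over the sexes 6 of 9 erythroid markers were called lower, 2 of 10 B cell markers higher and 1 of 10 T and NK cell markers higher. The part of these markers in the diet results for males and for both sexes was not tested.

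Averaged over the sexes, 1 member was called, against 5.7% of all genes tested (2.19% higher and 3.51% lower). Btg2 fell by 0.54 ± 0.13 (SE) on the log2 scale (edgeR adjusted p = 0.0161), and this call held without any single library and without the control pair of batch 3. It was lost without batch 2 (adjusted p 0.0591), without batch 3 (0.316) and without a batch term (0.364). The 3 Egr genes followed by p, with log2 fold changes of -0.69 ± 0.24 for Egr2, -0.53 ± 0.18 for Egr3 and -0.60 ± 0.22 for Egr1 (SE), and adjusted p of 0.0871, 0.0885 and 0.119. Egr2 ran from 1.89 to 10.3 CPM (median 2.997) in female control libraries and from 0.570 to 7.89 (median 1.91) in female Western-diet libraries, with overlapping groups, as in males. The number of members called was 2 without female control 2, male control 1 or male control 2, and 4 without female Western-diet 1. Here too the share of all genes called in the refits is not given.

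Whether diet acted differently in males and females was tested as the difference of the 2 diet effects. No member was called by edgeR, as for 0% of all genes tested; 8 members had an unadjusted p under 0.05, and DESeq2 and limma-voom called 0 members. The smallest p belonged to Hsp90aa1, the inducible HSP90, for which the male diet effect minus the female one was -0.99 ± 0.32 (SE). Hsp90aa1 ran from 664 to 964 CPM (median 767) in female control libraries and from 601 to 2140.1 (median 1181) in female Western-diet libraries. Fosb (0.70 ± 0.23), Hspa8 (-0.64 ± 0.21) and Hsph1 (-0.50 ± 0.17) came next, all 4 with an adjusted p of 0.589. Hsph1 ran from 131 to 273 CPM (median 185) in female control libraries and from 125 to 297 (median 199.9) in female Western-diet libraries, so its groups overlap.

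Between the sexes, 1 member differed on each diet. In control pups Egr3 was higher in males by 1.33 ± 0.26 (SE) on the log2 scale, 2.51-fold (edgeR adjusted p = 0.0376), where 0.112% of all genes were called and 0.0867% were higher in males. Egr3 ran from 0.747 to 4.24 CPM (median 1.28) in female control libraries and from 0.691 to 4.84 (median 0.763) in female Western-diet libraries. All 6 male control libraries exceeded the female control mean, 2 exceeded every female control library, and the within-batch differences were 0.98, 1.51 and 1.43. This call was lost without 11 of the 24 libraries in turn: female control 1, 3, 4 or 5, female Western-diet 2, male control 3, 4 or 6, and male Western-diet 1, 2 or 6 (log2 fold change 1.18 to 1.39, adjusted p 0.0517 to 0.140). It was also lost without the control pair of batch 3, at a log2 fold change of 1.45 and an adjusted p of 0.135.

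In Western-diet pups Fosb was higher in males by 0.98 ± 0.16 (SE), 1.97-fold (edgeR adjusted p = 0.00797), where 0.0816% of all genes were called and 0.0561% were higher in males. Fosb ran from 91.3 to 191 CPM (median 114) in female control libraries and from 58.96 to 175 (median 105) in female Western-diet libraries, beside the male Western-diet range of 158 to 328 (median 197) CPM. Male and female Western-diet libraries overlap, with 3 of 6 males above every female, and the within-batch differences were 0.96, 1.13 and 0.88. The call held without any single library. Other members joined it without female Western-diet 1 (4 called: Fosb, Nr4a1, Nr4a3 and Hsph1) and without male control 1 or 6 or male Western-diet 2 (2 called). For these refits the share of all genes called is not given. The Fosb call was lost without batch 2 (edgeR adjusted p 0.255), without batch 3 (0.113) and without a batch term (0.943).

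Of the immediate early members, 16 of 26 were higher in male control pups and 23 of 26 in male Western-diet pups by sign, with median log2 fold changes of 0.33 and 0.45 against 0.025 and -0.00075 over all genes. Nr4a3 differed by 0.93 and 1.17 and Nr4a1 by 0.78 and 0.92 on the 2 diets, with adjusted p between 0.0748 and 0.170. Heat shock members had medians of -0.059 and -0.24, and none was called. No member had groups that do not overlap in any diet or sex comparison, where 0.189% to 1.18% of all genes did. In control pups 2 of 10 B cell markers and 1 of 10 LSK markers were called higher in males. Erythroid markers were not called, with 8 of 9 higher in males by sign and summed levels of 1486 to 8734 (median 2975) CPM in female control and 2932 to 7145 (median 5198) CPM in male control libraries. The part of these markers in the result for Egr3 was not tested.

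The labelled batches were compared next, because the immediate early genes differed between them. All 26 had negative log2 fold changes in batch 2 and in batch 3 against batch 1, with medians of -0.89 and -1.29 against -0.0062 and -0.025 over all genes. In batch 2 18 of the 26 fell and in batch 3 23 fell, where 3.88% and 12.5% of all genes fell; counting either direction and all 38 members, 19 and 27 were called, against 6.09% and 20.3% of all genes. Between batches 3 and 2, 9 immediate early members were lower in batch 3 and none higher, in a comparison that called 15% of all genes (8.3% lower), with 14 members called in all. That last count was 7 to 9 without female control 4, 5 or 6, female Western-diet 6, male control 3, 4 or 5 or male Western-diet 3. Dusp2, Dusp5, Dusp6, Hspa1a, Hspa8, Hsph1 and Hspd1 were called in each of these fits. Without the control pair of batch 3 the count was 4, namely Dusp2, Hspa8, Hsph1 and Hspd1. The share of all genes called was not set beside the counts of these refits. Together the 26 genes took a median of 1.19% of counts in batch 1, 0.712% in batch 2 and 0.515% in batch 3. The batches hold 2 libraries of every group, so batch is not confounded with diet or sex. Batch took a median of 58.6% of the variance of log2 CPM over libraries in these genes, against 16.1% over all genes tested, and group took 13.7% against 14.98%.

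Atf3, a stress-induced partner of Jun, had the largest log2 fold changes of the immediate early genes. Atf3 ran from 75.1 to 131 CPM (median 91.7) in batch 1, from 8.36 to 18.6 (median 13.3) in batch 2 and from 10.4 to 22.1 (median 17.1) in batch 3. No library of batch 2 or 3 reached the lowest of batch 1, and its log2 fold changes were -2.91 ± 0.15 and -2.56 ± 0.15 (SE, edgeR adjusted p = 1.17e-11 and 4.31e-11). Batch took 93.5% of its variance. Its diet and sex log2 fold changes lay between -0.071 and 0.49, and none was called.

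The 3 Nr4a receptors were all called in both later batches. Any tie between these calls and the 4 TGACG matches in each of their promoters was not tested. Nr4a1 ran from 1257 to 2293 CPM (median 1645) in batch 1, from 245 to 725 (median 475) in batch 2 and from 124 to 767 (median 306) in batch 3. Nr4a2 ran from 41.00 to 118 CPM (median 58.6) in batch 1, from 13.6 to 37.6 (median 24.3) in batch 2 and from 11.1 to 27.1 (median 17.4) in batch 3, and Nr4a3 from 4.34 to 15.4 (median 8.09) in batch 1, from 1.15 to 5.16 (median 2.97) in batch 2 and from 0.886 to 3.26 (median 1.80) in batch 3. Batch 1 stood clear of batch 3 for all 3 genes and of batch 2 for Nr4a1 and Nr4a2; Nr4a3 overlapped between batches 1 and 2. Against batch 1, Nr4a1 fell by 1.87 in batch 2 and 2.46 in batch 3, Nr4a2 by 1.44 and 1.82, and Nr4a3 by 1.61 and 2.30 on the log2 scale (edgeR adjusted p at most 3.37e-05). Nr4a1 and Nr4a3 also fell between batches 2 and 3.

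**Figure D2:**
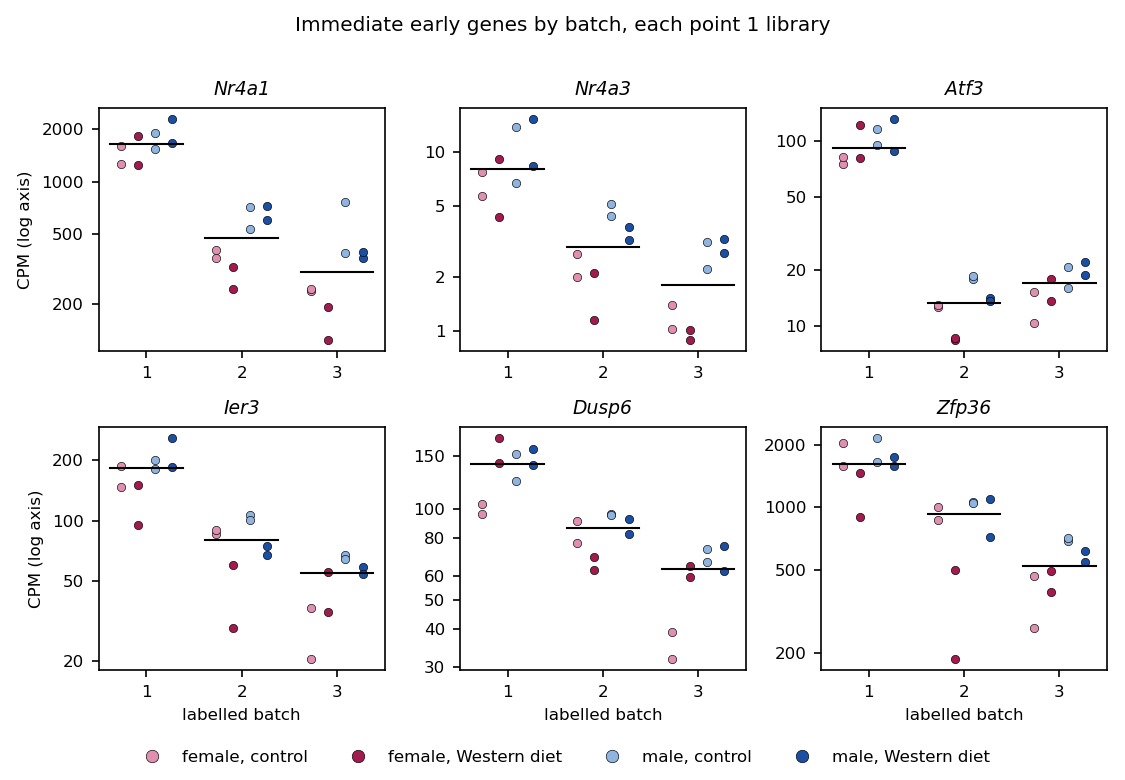
CPM (log axis) of 6 immediate early genes by labelled batch (x axis); each point is 1 library, colours mark the 4 groups and lines the batch median. For Atf3 every library of batch 1 lies at 75.1 CPM or above and no library of batches 2 and 3 exceeds 22.1 CPM, whatever its group.

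Of the 4 feedback phosphatases, Dusp5 and Dusp6 fell at each step from batch 1 to batch 3. Dusp5 ran from 25.4 to 70.1 CPM (median 42.5) in batch 1, from 16.3 to 27.8 (median 19.4) in batch 2 and from 9.12 to 18.9 (median 15.98) in batch 3, with log2 fold changes against batch 1 of -1.08 and -1.70. Dusp6, the cytoplasmic ERK phosphatase, was -0.68 and -1.23. For both genes the batch 3 libraries lay below all of batch 1. Dusp2, a nuclear phosphatase, ran from 24.99 to 65.6 CPM (median 53.1) in batch 1, from 20.8 to 42.4 (median 38.8) in batch 2 and from 12.04 to 24.8 (median 19.7) in batch 3; it fell by 1.26 in batch 3 against 1 and by 0.91 against 2 but was not called in batch 2 against 1 (-0.35). Dusp1 was called in no batch comparison (-0.28, -0.48 and -0.21).

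Among the AP-1 subunits, the Fos family was called lower in both later batches: Fos by -0.71 and -0.48, Fosb by -0.98 and -0.73 and Fosl2 by -1.04 and -1.48. Fos ran from 899 to 1874 CPM (median 1299.7) in batch 1, from 425 to 1210.0 (median 832) in batch 2 and from 432 to 1187 (median 1038) in batch 3, and its batches overlap. Jun (-1.42), Junb (-1.11) and Jund (-1.11) fell in batch 3 against 1 but were not called in batch 2 against 1 (-0.30, -0.55 and -0.53). Jun ran from 369 to 1834 CPM (median 1111) in batch 1, from 313 to 1457 (median 923) in batch 2 and from 52.4 to 886 (median 469) in batch 3. Several of these calls were lost when single libraries were left out, with adjusted p values just over the threshold. Between batches 3 and 1, Jun was lost without female control 1, female Western-diet 1 or 5 or male control 2 (adjusted p 0.0520 to 0.0579). Junb was lost without female control 1, 5 or 6, female Western-diet 1 or 5 or male control 2 or 5 (0.0504 to 0.0689). Fos was lost without female control 2, 5 or 6, female Western-diet 1, male control 1, 2, 3 or 5 or male Western-diet 1, 5 or 6 (0.0509 to 0.0793). Without the control pair of batch 3, Junb had an adjusted p of 0.108 and Fos a log2 fold change of -0.30 and an adjusted p of 0.204.

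In the remaining roles, all members but Ier2, Zfp36l1 and Zfp36l2 fell in both later batches. The Egr factors fell in both later batches, Egr1 by -0.96 and -1.29, Egr2 by -1.34 and -1.40 and Egr3 by -1.63 and -1.89 on the log2 scale. Ier3, which restrains ERK shut-off and cell death, and Ier5, which aids Hsf1, fell in all 3 comparisons, reaching -1.85 and -1.41 in batch 3 against 1. The antiproliferative pair Btg1 (-1.02) and Btg2 (-1.30) did likewise. Zfp36 fell by 1.09 and 1.64, Zfp36l2 fell in batch 3 only against batch 1 (-0.67), and Zfp36l1 was not called (-0.65 and -0.54). Rhob, a short-lived GTPase, fell by 1.00 and 1.13. Ier2 was called in no batch comparison (-0.39, -0.83 and -0.44).

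Libraries of batch 3 lay entirely below those of batch 1 for 11 immediate early members, namely Nr4a1, Nr4a2, Nr4a3, Ier3, Ier5, Dusp2, Dusp5, Dusp6, Btg1, Zfp36 and Atf3, where 2.18% of all genes had batches that do not overlap (1.7% lower). For batch 2 against 1 there were 3, Nr4a1, Nr4a2 and Atf3, against 1.4% of all genes (1.01% lower), and for batch 3 against 2 none, against 0.571% (0.438% lower). Taking each group by itself, 18 of the 26 were lower in batch 2 than in batch 1 in all 4 groups, and 22 in batch 3. The 4 exceptions in batch 3 were Dusp1, Ier2, Junb and Zfp36l1. Each difference within a group sets 2 libraries against 2. These directions were counted for the members only, so no share over all genes stands beside them.

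**Figure D3:**
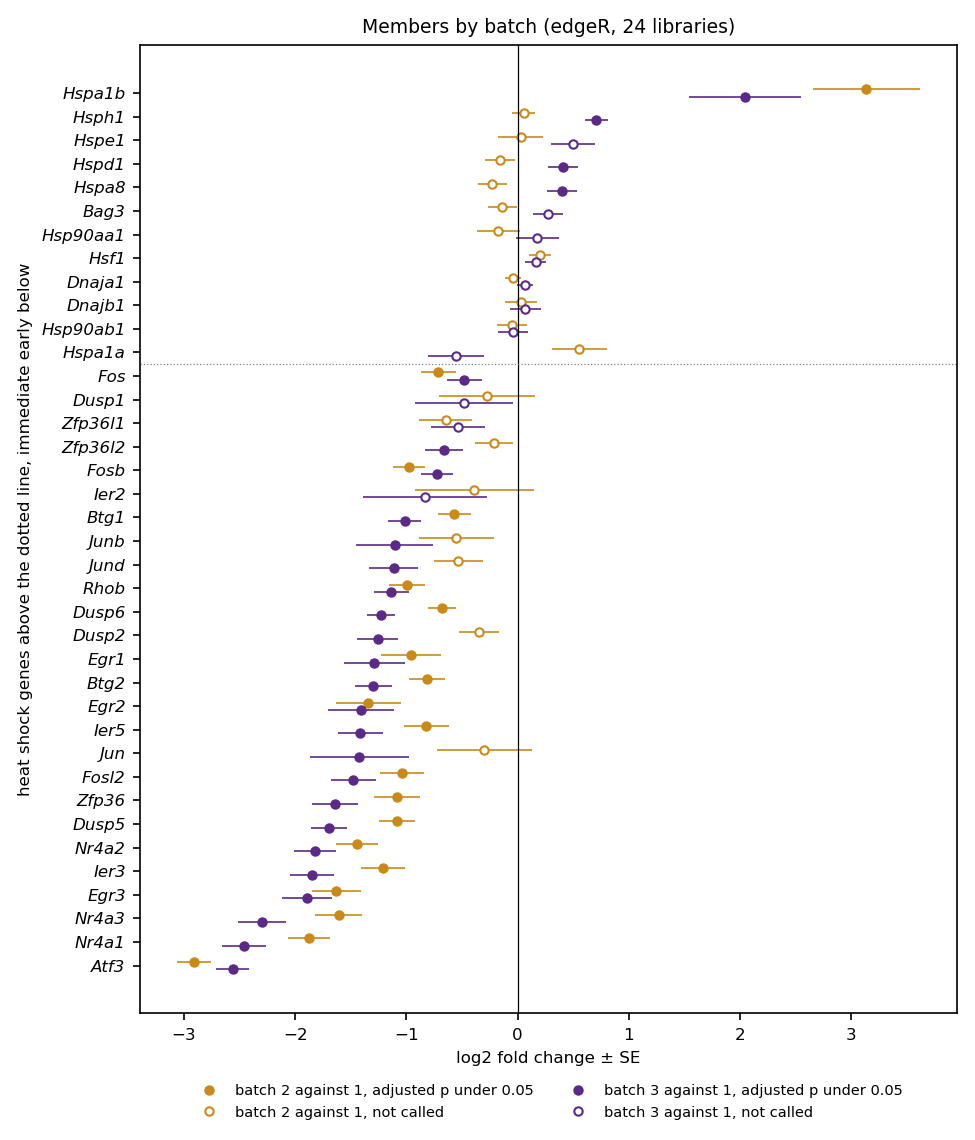
Log2 fold change of each tested member in batch 2 (orange) and batch 3 (purple) against batch 1 (x axis, points with SE bars, edgeR on 24 libraries); filled points have an adjusted p under 0.05. All 26 immediate early genes lie left of 0 in both comparisons, and Hspa1b lies furthest right, at 3.14 and 2.04.

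Other measures moved with the batches. Macrophage and monocyte markers summed to 865 to 1900.4 (median 1359) CPM in batch 1, 431 to 729.6 (median 600.4) in batch 2 and 429 to 1079.6 (median 624) in batch 3, and 7 and 8 of 10 were called lower in batches 2 and 3 against 1. None of the 10 was at 0 in any library. B cell markers summed to 1001 to 2246 (median 1175), 643 to 1301 (median 919) and 379 to 1499 (median 749) CPM (5 and 8 of 10 called lower). Erythroid markers summed to 2522 to 8734 (median 3542), 776 to 7063 (median 2328) and 1174 to 3717 (median 1999) CPM (0 and 5 of 9 called lower). Neutrophil markers summed to 40.1 to 179 (median 76.4), 23.1 to 95.5 (median 57.3) and 18.3 to 98.97 (median 41.2) CPM, with Ly6g at 0 in 20 libraries. T and NK cell markers had 2 and 5 of 10 called lower, and LSK markers 0 and 5 of 10. Of 10 stroma and endothelium markers none was called in batch 2 and 1 rose and 1 fell in batch 3, with summed levels of 445 to 1135 (median 701), 542 to 871 (median 762) and 469 to 1501 (median 789.8) CPM. Median counts in genes were 43095578, 46322846 and 42495874, and the median mitochondrial share was 1.03%, 1.11% and 0.879%. The part of these measures in the batch results was not tested.

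Beyond batch and group, a handful of immediate early genes varied widely between the 2 libraries of 1 group and batch. Jun, Ier2 and Dusp1 had within-pair SDs of log2 CPM of 0.943, 1.03 and 0.847, above those of 94.8%, 96.3% and 92.6% of the genes tested. Junb and Egr1 stood at 77.8% and 79.3%. Fos did not share this spread, at 38.1%, and Dusp6 was among the steadiest, at 9.45%. The tested genes as a whole had a median of 0.335.

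A group of 4 libraries held the lowest values of Ier2 and Junb. Ier2 was 184, 48.1, 152 and 115 CPM in female Western-diet 5 and 6, male control 5 and male control 1, against a range of 398 to 2165 in the other 20 libraries. Junb was 334, 180.1, 895 and 743 CPM in the same 4, against 949 to 3588 in the others. Jun was 189, 52.4, 86.8 and 369 CPM and Dusp1 64.1, 34.01, 39.3 and 78.6 CPM there, but female control 3, of batch 2, was as low, at 313 CPM for Jun and 48.95 CPM for Dusp1. Without that library too, the others began at 438 CPM for Jun and 82.2 CPM for Dusp1. Fos was not low there, at 826, 1174, 1021 and 1874 CPM, and male control 1 held its highest value. In these 4 libraries the chaperone Hspa8 stood at 4676, 5182, 4365 and 4892 CPM, its 4 highest values, and Hsp90aa1 at 2140.1, 1365, 1210.1 and 1475 CPM. Egr1 was 55.2, 44.5, 86.8 and 155 CPM, against 80.7 to 413 in the others, so its values overlap. These libraries were picked out after their values were seen, they come from 2 of the 4 groups, and no test was made of them.

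**Figure D4:**
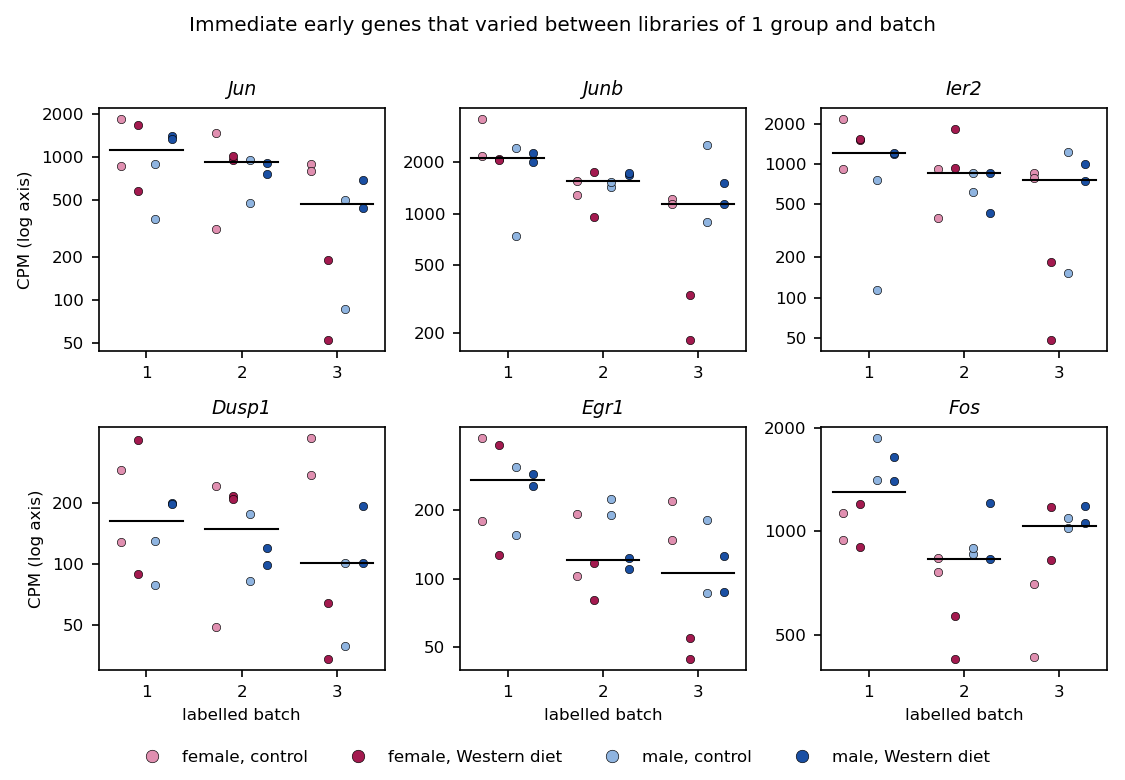
CPM (log axis) of Jun, Junb, Ier2, Dusp1, Egr1 and Fos by labelled batch (x axis); each point is 1 library, colours mark the groups and lines the batch median. Female Western-diet libraries 5 and 6 are the lowest of batch 3 for Junb and Egr1. Library 6 is also the lowest for Jun (52.4 CPM) and Ier2 (48.1 CPM), whereas Fos stands at 826 and 1174 CPM in these libraries.

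The heat shock genes did not follow the immediate early genes by batch. Their median log2 fold change was -0.0059 in batch 2 and 0.23 in batch 3 against batch 1, and their share of counts had medians of 0.858%, 0.862% and 1.01% in batches 1 to 3. Of the 12 tested, 1 rose in batch 2 and 4 rose in batch 3 against batch 1, where 2.21% and 7.77% of all genes rose. Between batches 3 and 2, 4 were higher and 1 lower, where 6.67% were higher.

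Hsph1 rose by 0.71 ± 0.10 (SE) in batch 3 against 1 and by 0.65 ± 0.10 against 2 on the log2 scale (edgeR adjusted p = 4.53e-05 and 0.000331). Hsph1 ran from 109.9 to 199 CPM (median 151) in batch 1, from 127 to 206 (median 145) in batch 2 and from 159 to 297 (median 265) in batch 3. Batches overlap through male Western-diet library 6 of batch 3, and the difference was positive in all 4 groups. Hspa8 ran from 2234 to 4892 CPM (median 2566) in batch 1, from 2114 to 2648 (median 2485) in batch 2 and from 2335 to 5182 (median 3679.7) in batch 3; it rose by 0.40 against batch 1 and 0.63 against batch 2. The mitochondrial chaperonin Hspd1 rose by 0.41 and 0.57, and its partner Hspe1, at 0.50 and 0.47, was not called. Bag3 rose by 0.41 in batch 3 against 2. The 2 smaller rises against batch 1 were lost when single libraries were left out. Hspa8 was lost without female control 2, female Western-diet 1, 2, 5 or 6, male control 2 or male Western-diet 1 or 5 (edgeR adjusted p 0.0517 to 0.0722). Hspd1 was lost without female control 6, female Western-diet 1 or 5 or male Western-diet 5 (0.0616 to 0.0709). Without the control pair of batch 3 Hspd1 had an adjusted p of 0.0754.

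The HSP90 and HSP40 genes and Hsf1 were not called in any batch comparison. Hsp90ab1 ran from 2151 to 4447 CPM (median 2999.7) in batch 1, from 2494 to 4004 (median 2818) in batch 2 and from 2457 to 4699 (median 2862) in batch 3 and Hsf1 from 109.7 to 169 (median 131) in batch 1, from 132 to 175 (median 151) in batch 2 and from 105 to 188 (median 149) in batch 3, with overlapping batches. Batch took 0.12% of the variance of Hsp90ab1, 0.46% of that of Dnajb1, the HSP40 partner of inducible HSP70, and 17.7% of that of Hsf1. Dnaja1, another HSP40, ran from 276 to 389 CPM (median 334) over all 24 libraries and had 1 of the smallest SDs of the genes tested (0.151 on the log2 scale, above that of 2.83% of genes). Hsp90aa1 ran from 601 to 1475 CPM (median 841) in batch 1, from 545 to 1284 (median 775) in batch 2 and from 664 to 2140.1 (median 919) in batch 3, so its batches overlap as well.

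**Figure D5:**
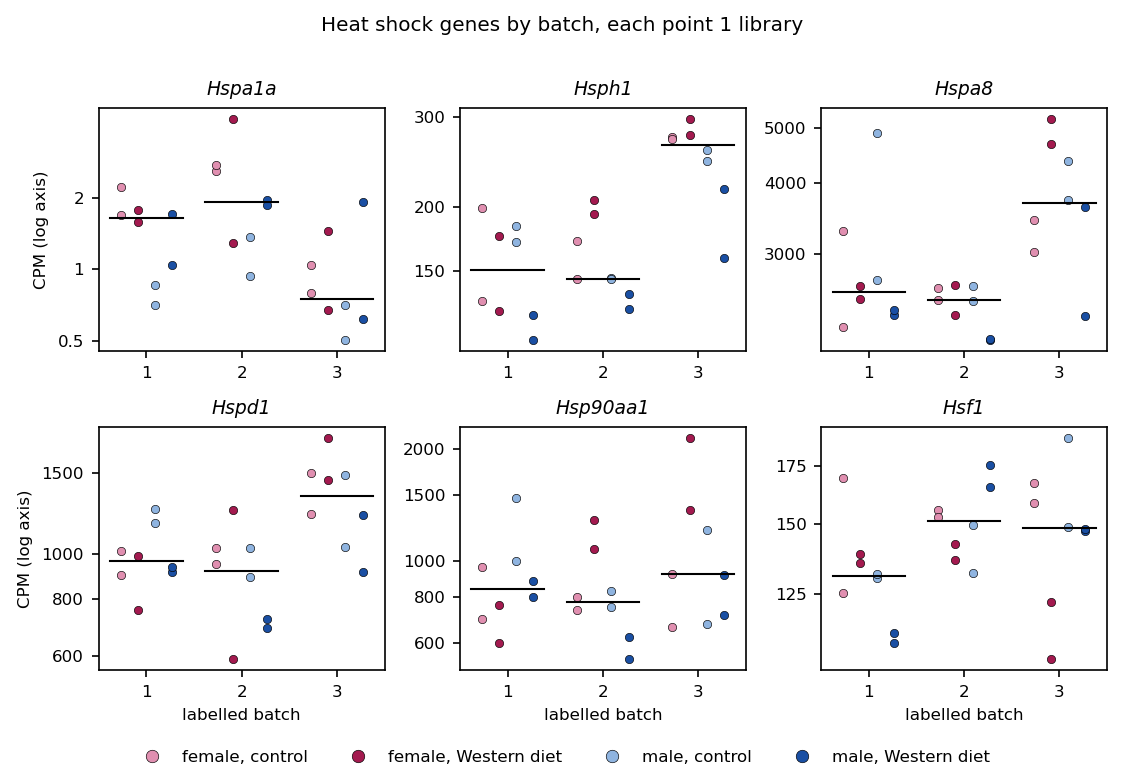
CPM (log axis) of Hspa1a, Hsph1, Hspa8, Hspd1, Hsp90aa1 and Hsf1 by labelled batch (x axis); each point is 1 library, colours mark the groups and lines the batch median. Hsph1 has batch medians of 151, 145 and 265 CPM and Hspa1a of 1.65, 1.93 and 0.753 CPM.

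The inducible HSP70 pair had few counts, so its values rest on few reads. Hspa1b had 0 to 74 counts per library and ran from 0 to 0.181 CPM (median 0.0646) in batch 1, from 0.147 to 1.61 (median 0.564) in batch 2 and from 0.155 to 0.767 (median 0.266) in batch 3. It rose by 3.14 ± 0.48 (SE) in batch 2 and 2.04 ± 0.50 in batch 3 against batch 1 (edgeR adjusted p = 0.000222 and 0.00594), from at most 8 counts in any library of batch 1. Hspa1a had 22 to 199 counts and ran from 0.710 to 2.24 CPM (median 1.64) in batch 1, from 0.940 to 4.33 (median 1.93) in batch 2 and from 0.501 to 1.93 (median 0.753) in batch 3. It was not called against batch 1 (0.55 and -0.55) and fell by 1.11 between batches 2 and 3 (adjusted p = 0.00535; 0.0524 without the control pair of batch 3). Because the 2 copies share much of their sequence, the pair was also counted as 1 gene. Batch 2 against 1 then gave 0.87 (edgeR adjusted p 0.0501), batch 3 against 1 gave -0.21 (0.653) and batch 3 against 2 gave -1.08 (0.00931). Reads that fit both copies may be missing from the sum as well. For batch 2 the sum thus kept the direction of Hspa1b and missed the threshold, and for batch 3 against 1 it did not keep the direction.

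Pairs of members were compared over the 24 libraries after centring log2 CPM on group and batch, with an exact permutation over all swaps of the 2 libraries inside each of 12 group and batch pairs (two-sided, smallest p 0.000488, 10 pairs tested). Hsp90aa1 and Hsp90ab1 moved together, with Pearson's r of 0.89 and Spearman's rho of 0.91 (exact permutation p = 0.00635 and 0.00586, Benjamini-Hochberg adjusted 0.0317 and 0.0293). Without the 2 libraries farthest from the median of Hsp90aa1, r was 0.88. After centring, the 2 libraries of a group and batch pair mirror each other. Without the 2 pairs farthest apart in Hsp90aa1, r was 0.84. Hspa1a and Hspa1b had r = 0.73 and rho = 0.85 (exact permutation p = 0.00195 and 0.00244, adjusted 0.0195 and 0.0244). Their r was 0.68 without 2 libraries and 0.63 without 2 pairs, and the part of shared reads in this tie was not tested.

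Among the 10 pairs, Fos was set against 5 members. Its r was -0.052 with Jun, 0.018 with Egr1, 0.040 with Dusp1, -0.44 with Ier2 and 0.13 with Hspa1b. Egr1 and Nr4a1 had r = 0.50, Hsph1 and Dnajb1 0.30, and Hspa1b and Dnajb1 0.12. None of these 8 passed (exact permutation, adjusted p 0.298 to 0.948 for r and 0.138 to 0.961 for rho). The lowest for rho was Fos with Ier2, at -0.53 (exact permutation p = 0.0415). As a description, with no test, the highest r of Fos with any member after the same centring was 0.80 with Zfp36, then 0.75 with Atf3, 0.50 with Ier3 and 0.48 with Dusp6, and the lowest was -0.66 with Rhob. As a description over all pairs of members, the median r was 0.24 among immediate early genes, 0.21 among heat shock genes and -0.14 between the classes, against -0.00075 over all pairs of tested genes.

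Other genes of the same pathways were read from further lists. Of 47 other immediate early genes tested, 29 fell and 1, Myc, rose in batch 2 against 1, and 38 fell and none rose in batch 3, where 3.88% and 12.5% of all genes fell. Among those that fell were Nfkbia, the NF-kB inhibitor (-1.58 and -1.27), Klf6 (-1.25 and -1.08) and Bhlhe40 (-1.70 and -2.54). The median log2 fold changes of the 47 were -0.88 and -1.12. Of 17 brakes on ERK and other MAP kinases, 5 and 6 fell and none rose in batches 2 and 3, with Dusp4 at -1.37 and -2.15 and Dusp10 at -1.52 and -1.64. Of 21 SRF, TCF and AP-1 partners, 4 and 8 fell and none rose. In batch 3 against 2, the counts of higher and lower were 1 and 11 for the other immediate early genes, 1 and 3 for the brakes and 0 and 6 for the partners.

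Some chaperones outside the set rose in batch 3. Of 40 other cytosolic chaperones, 10 rose and none fell against batch 1 and 13 rose and none fell against batch 2, where 7.77% and 6.67% of all genes rose. The median log2 fold changes of the 40 were 0.086 and 0.083. Those that rose include Hspa4l (0.57 and 0.57) and the HSP90 helpers Ahsa1 (0.38 and 0.31) and Stip1 (0.34 and 0.37). Of 8 subunits of the TRiC chaperonin, which folds actin and tubulin, 3 and 5 rose. Of 10 mitochondrial chaperones and proteases, 5 rose in each comparison. In batch 2 against 1 the corresponding counts were 1 lower (Dnajb4) among the cytosolic chaperones and 0 in the other lists. Of 3 other heat shock factors, Hsf2 alone was called, lower in batch 3 against 2 (-0.50).

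By maternal diet in females, 4 of 47 other immediate early genes, 1 of 17 brakes and 1 of 21 partners were called. So were 2 of 40 cytosolic and 1 of 10 mitochondrial chaperones, where 5.42% of all genes were called. No list was tested against that share, and all these calls include the female control pair of batch 3. The other immediate early genes included 1 that rose, Klf6 (0.47), and 3 that fell: Nfkbia (-0.57), Ppp1r15a, a brake on the integrated stress response (-0.73), and the chemokine Cxcl2 (-1.20). Dusp8, a phosphatase of JNK and p38, fell by 1.45, the largest drop among these lists in females (edgeR adjusted p = 0.00499). Nab1, which binds and represses Egr1, rose by 0.63. Among chaperones Bag2 (-0.54), Dnajb2 (-0.84) and the mitochondrial protease Htra2 (-0.47) fell. Averaged over the sexes, where 5.7% of all genes were called, the calls were Klf6 (0.42) and Klf4 (0.42) higher and Nfkbia (-0.45), Ppp1r15a (-0.56) and Cxcl2 (-0.93) lower among 47 immediate early genes. The brakes had Dusp8 lower (-1.10) and Rasa1 higher (0.27). The chaperones Bag2 (-0.52), Dnaja4 (-0.78), Dnajb2 (-0.56) and Dnajb4 (-0.25) and the mitochondrial Htra2 (-0.29) and Clpx (-0.21) were lower. In males none of these lists held a called gene. Between the sexes, Bhlhe40 was higher in males on both diets (0.73 in control and 0.61 in Western-diet pups) and Irf1 in control pups (0.96).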

How the data were processed

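RNA was sequenced from 24 LSK libraries of postnatal day 21 mouse pups, 6 in each of 4 groups set by sex and maternal diet, with 2 per group in each of 3 labelled batches. The authors deposited raw counts per gene for each library. The tools FastQC, cutadapt, STAR, HTSeq and DESeq2 and the genome build GRCm39 are named, without versions, per the submitters' processing notes, and the strand setting is not given in the sources used here. Rows that name no gene held 31.0% to 39.3% of all counts (7.07% to 16.4% no feature, 4.41% to 5.20% ambiguous) and were left out of library sizes and tests. Of 55414 gene identifiers 52081 matched a symbol in GENCODE M21 on GRCm38, which was used for names, exon lengths and overlaps only, and no coordinate was moved between builds. Promoter sequences are those of RefSeq on GRCm38.p6.

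Counts were tested in edgeR 4.0.16 (R 4.3.3) after filterByExpr, with TMM scaling (factors from 0.932 to 1.05) and a quasi-likelihood fit, robust, of group and batch over the 24 libraries (common biological coefficient of variation 0.261). P-values were adjusted by Benjamini-Hochberg over 19616 genes, and a gene was called at an adjusted p under 0.05. CPM were scaled by the TMM factors, and 0.5 counts were added before log2 for the spread and correlations. Alternatives used DESeq2 1.42.0, limma 3.58.1 (voom with quality weights), RLE size factors, other filters, left-out libraries and batches, and Hspa1a and Hspa1b counted as 1 gene. Following single members by batch under these alternatives was chosen after seeing the data. Correlations and figures were made in Python 3.11.15 (numpy 2.4.6, scipy 1.17.1, matplotlib 3.10.9). On simulated counts with 50 genes changed at each fold, the fit for diet in females recovered 18%, 58%, 82% and 90% at 1.5-, 2-, 3- and 4-fold with 6 false calls among 19351 genes. For batch 3 against batch 1 it recovered 46%, 72%, 90% and 96%, with 4 false calls.

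The members, the 14 gene lists (221 genes, 219 matched) and the tests were chosen with earlier results of these data known. Group values are printed for Fos, Jun, Junb, Egr1, Dusp1, Ier2, Hspa1a, Hspa1b, Hspa8, Hsp90ab1 and Hsf1, for each member called by diet or sex and for the 4 members of smallest p in each diet comparison. Batch values are printed for the 4 members of smallest p in each batch comparison and for further members. Replicate numbers of the titles are shared by the groups. After group and batch were removed, same-numbered libraries correlated at -0.17 to 0.18 (median -0.021), so the numbers pair libraries no further than batch does. Depth was 38057263 to 51581968 counts in genes per library, and Hspa1b and Hspb1 had few counts.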

Additional observations from a re-analysis of the deposited data

Results flagged for a closer look

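Within the 4 groups of 6, single libraries stood apart from the other 5 in 8 of 152 member and group combinations, by a gap over Dixon's 95% limit as a share of the group's range on the log2 CPM scale. Chance alone gives about 1 in 20 for 6 independent draws from 1 normal distribution. The values were not centred on batch, and members vary together, so that rate may not hold here. The flags are therefore only a description. Among immediate early genes, male control 2 was the highest of its group for Fosb (gap 0.636 of the range; 8.40 against a median of 7.06 in the others). Female Western-diet 6 was the lowest of its group for Ier5 (0.709; 1.92 against 3.78). Among heat shock genes, male control 2 was the lowest for Hspa1b, with 0 counts (0.677; -6.30 against -2.55). Male Western-diet 5 was the highest for Hspa8 (0.772; 11.83 against 11.19) and male control 6 the highest for Dnajb1 (0.758; 9.02 against 8.25). Female control 2 was the highest for Hsp90ab1 (0.627; 11.67 against 11.36) and the lowest for Hsf1 (0.660; 6.97 against 7.31). Male control 6 was the highest for Hsf1 (0.626; 7.56 against 7.04). Female control 2, male control 2 and male control 6 are each named for 2 genes.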

How the results depend on the processing

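Members called numbered 1, 0 and 1 for diet in females, in males and over both sexes, 0 for diet by sex, 1 between the sexes on each diet, and 19, 27 and 14 for batch 2 against 1, 3 against 1 and 3 against 2. RLE size factors, a filter of 1 CPM in 6 libraries and the summed Hspa1 pair moved none of these by over 1.5 times. With no filter the counts were 9, 8 and 6 for diet, 7 for diet by sex, 14 and 14 for sex and 23 for batch 3 against 2. Over all genes the unfiltered fit called 2023, 380 and 1693 for diet, against 1064, 2 and 1118. The cause was not tested. DESeq2 called 4 members in females (Egr1, Btg2, Zfp36l1 and Bag3, all lower), 3 over both sexes and 4 between the sexes on each diet. With limma-voom the counts were 2 in females, 1 in males, 3 over both sexes and 3 between the sexes in control pups. Its count between the sexes in Western-diet pups did not move. DESeq2 called 1805, 99 and 1784 genes for diet. Without the female control pair of batch 3 the count was 0 in females, 0 for sex in control pups and 4 for batch 3 against 2. Without a batch term it was 0 in females, over both sexes and for sex on either diet. With the replicate block in place of batch, Egr3 was no longer called between sexes in control pups (1.36, adjusted p 0.0547, 0 members), and no other diet or sex count changed. With only the 2 groups compared, 0 members were called in females and 2 (Egr3 and Hspa1a) for sex in control pups. Without batch 1 the counts were 5 in females, 6 over both sexes, and 0 and 5 between the sexes for control and Western-diet pups. Without batch 2 they were 0 over both sexes and for sex on either diet. Without batch 3 they were 0 in females, over both sexes and for sex on either diet. Leaving out each library in turn gave 0 to 5 in females, 0 in males, 1 to 4 over both sexes, 0 for diet by sex, 0 to 1 and 1 to 4 for sex, and 17 to 20, 22 to 29 and 7 to 14 by batch. Except for diet in the unfiltered and DESeq2 fits, the number of all genes called is not printed beside the counts of these alternatives. Those counts are therefore not read as a result about the members. Centred on batch only, r turned negative for Fos with Egr1 (-0.097), Dusp1 (-0.48) and Hspa1b (-0.14). Low counts limit Hspa1b, at 0 to 74 counts, and Hspb1, which was not tested. The labels name no dam or litter, so litter and diet cannot be told apart.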
